A study of Mus musculus with 21 samples.

Results

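The cells described here are mouse embryonic fibroblasts (MEFs) carrying Spi1, which encodes PU.1, together with Irf8 (the PI8 set), collected 3 days after transduction, divided by their own H2-Aa message. H2-Aa encodes the alpha chain of the MHC class II molecule I-A. Each cell was thinned at random to 10000 unique molecular identifiers (UMIs, each tagging 1 captured transcript), and a cell was called H2-Aa high when the draw held at least 2 H2-Aa UMIs and H2-Aa negative when it held 0. Of 411 cells of the library, 401 reached 10000 UMIs, and 110 of these were high, 257 were negative and 34 held a single H2-Aa UMI and fell in neither class. The high and negative cells together were 367 of the 25991 cells of the series. H2-Aa itself chose the classes, so its difference between them is given only as a description.

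The series profiled MEFs with different sets of haematopoietic transcription factors by droplet single-cell 3' RNA sequencing at day 3 and day 9, beside untransduced MEFs and splenic dendritic cells. The PI8 fibroblasts had the genotype Clec9aCre/Cre Rosa26stopflox-tdTomato/tdTomato, in which Cre made from the Clec9a locus switches on a tdTomato reporter, received the factors by lentivirus, and were sorted as live (DAPI-) tdTomato+ cells. Other transduced libraries compared below carried the same reporter genotype and the same gate with PI8 plus Batf3 (PIB, day 3 and day 9) or Spib with Irf8 (SI8, day 3). Some comparisons add libraries with Spi1 and Irf4 (PI4, day 3), PI4 plus Prdm1 (PIP, day 3 and day 9) or SI8 at day 9. Shares of high cells are also given for PI8 and PI4 at day 9 and for SI8 with Ikzf2 (SII). They are given as well for SI8 and SII libraries labelled CD2 in place of Clec9a, whose genotype and gate are not described here. Each set, label and day was 1 library, and the sources used here do not say whether libraries came from separate cultures or animals.

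MHC class II molecules present peptides from endocytosed protein to CD4+ T cells and are a defining product of dendritic cells, B cells and macrophages. Their alpha and beta chains assemble with the invariant chain (Cd74), which is trimmed by lysosomal proteases such as cathepsin S (Ctss), and the H2-DM dimer then exchanges its last fragment for peptide. Transcription depends on CIITA (Ciita), a coactivator without DNA binding of its own that is recruited by RFX, NF-Y and CREB bound at the X and Y boxes of class II promoters. Embryonic fibroblasts at rest make little class II and little CIITA.

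The 2 classes were alike in depth and in measures of RNA quality. The median cell held 84311 UMIs in the high class, 83049 in the negative class and 84026.5 among the single-UMI cells. Median mitochondrial shares were 2.20% and 2.21%, and the median numbers of genes detected were 6993.5 and 7077 in high and negative cells. The library shared 3 cell barcodes with any other library. Scrublet called 12 of the 401 cells as doublets, 6 of them high and 5 negative, and all were kept in the main values. Levels are given as CPM, the UMIs of a gene per 1000000 UMIs, over the UMIs that were not drawn. These were summed over the cells of a class and came to 7404549 UMIs for the high and 17378574 for the negative class, so the UMIs that chose a cell do not enter its level. Intervals are exact 95% intervals for counting error only, and with 1 library there is no test of the split within PI8 day 3.

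High cells made up 27.4% of the kept cells (exact binomial 95% interval 23.1% to 32.1%). Their draws held 2 to 69 H2-Aa UMIs with a median of 6, and 11 cells held exactly 2. In the UMIs not drawn, H2-Aa stood at 1032 CPM in the high and 16.2 CPM in the negative class. The negative class was not free of the transcript at full depth: 154 of its 257 cells had 0 H2-Aa UMIs, 103 had at least 1 and 5 had at least 10. Under the same rule 0 of 1983 cells of the first and 0 of 1718 cells of the second untransduced MEF library were high, at median depths of 18100 and 25927.5 UMIs per cell, which by the exact binomial 95% interval allows shares of up to 0.186% and 0.214%.

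The class II genes lie together in the MHC on chromosome 17 (mm10, GENCODE M21). H2-Aa spans chr17:34282744-34287823 on the minus strand, H2-Ab1 chr17:34257689-34269419, H2-Eb1 chr17:34305867-34316674, H2-DMa chr17:34119541-34139101 and H2-DMb1 chr17:34153072-34160230, all 4 on the plus strand. Ciita lies apart at chr16:10480059-10528418 on the plus strand. The promoters below are shown because H2-Eb1 and H2-DMb1 were higher together with H2-Aa and all 4 hold letters of the X and Y boxes at a like spacing, H2-Ob with 0 UMIs in either class. They were read from the RefSeq promoter table (GRCm38.p6), from 20 bases before the X letters to 20 after the Y letters, 5′ to 3′ on the gene's strand. Capitals mark CTNGNAAC (X letters) and TGATTGG (Y letters).
H2-Aa: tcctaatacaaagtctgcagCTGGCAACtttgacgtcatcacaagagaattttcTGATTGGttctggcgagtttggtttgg
H2-Eb1: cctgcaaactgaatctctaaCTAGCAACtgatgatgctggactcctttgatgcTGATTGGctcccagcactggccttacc
H2-DMb1: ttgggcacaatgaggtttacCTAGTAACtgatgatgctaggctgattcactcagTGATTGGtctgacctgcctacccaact
H2-Ob: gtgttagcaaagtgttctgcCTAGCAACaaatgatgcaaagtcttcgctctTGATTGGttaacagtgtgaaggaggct

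The windows are chr17:34287847-34287927 (minus strand) for H2-Aa and, on the plus strand, chr17:34305753-34305832 for H2-Eb1, chr17:34153074-34153154 for H2-DMb1 and chr17:34238795-34238872 for H2-Ob. The 2 sets of letters were 23 to 26 bases apart and the X letters began 84 to 97 bases before the start of the RefSeq entry, which for H2-DMb1 lies inside the gene as GENCODE draws it. The letters were chosen after these promoters were read, and a promoter counted as holding the pair when X letters were followed by Y letters on 1 strand within 40 bases in the 250 bases before the start. Of 32851 promoters in the table, searched on both strands, 27 (0.0822%) held the pair, 10.9% held the X letters and 7.23% the Y letters. The entries for H2-DMa, H2-DMb2, H2-Oa, H2-Eb2, Ctss, Ifi30 and Lgmn did not hold the pair in these letters. H2-Ab1, Cd74 and Ciita were not matched in the table.

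The genes that build and load class II molecules were higher in H2-Aa high cells almost as a whole. H2-Eb1, the beta chain of I-E, stood at 1131 CPM (1106 to 1155) in the high and 74.1 CPM (70.1 to 78.3) in the negative class, a 15.3-fold difference. H2-Ab1, the beta chain that pairs with H2-Aa, stood at 953 CPM (931 to 975) against 78.1 CPM (74.0 to 82.4), a 12.2-fold difference. Both chains of the peptide exchanger were higher as well. H2-DMb1 was at 327 CPM against 29.0 CPM, 11.3-fold higher, and H2-DMa at 294 CPM against 58.3 CPM, 5.05-fold higher. Cd74 was the most abundant of the group in both classes, at 6093 CPM (6037 to 6150) against 1247 CPM (1230 to 1263), and was 4.89-fold higher.

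Single cells overlapped between the classes, but their bulk was apart. For H2-Ab1 the high cells ran from 0 to 6611 CPM with a median of 615.5 CPM and the negative cells from 0 to 2851 CPM with a median of 12.9 CPM. For H2-Eb1 the medians were 734 and 11.3 CPM, and 96.4% of high cells lay above the third quartile of the negative cells. Cd74 ran from 1105 to 19337 CPM with a median of 5062 CPM in high cells, and from 0 to 9156 CPM with a median of 409 CPM in negative cells. No high cell was without Cd74, and 3.11% of negative cells exceeded the median of the high cells. Cells barely above 10000 UMIs have few UMIs left outside the draw, so their own values are coarse.

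**Figure D1:**
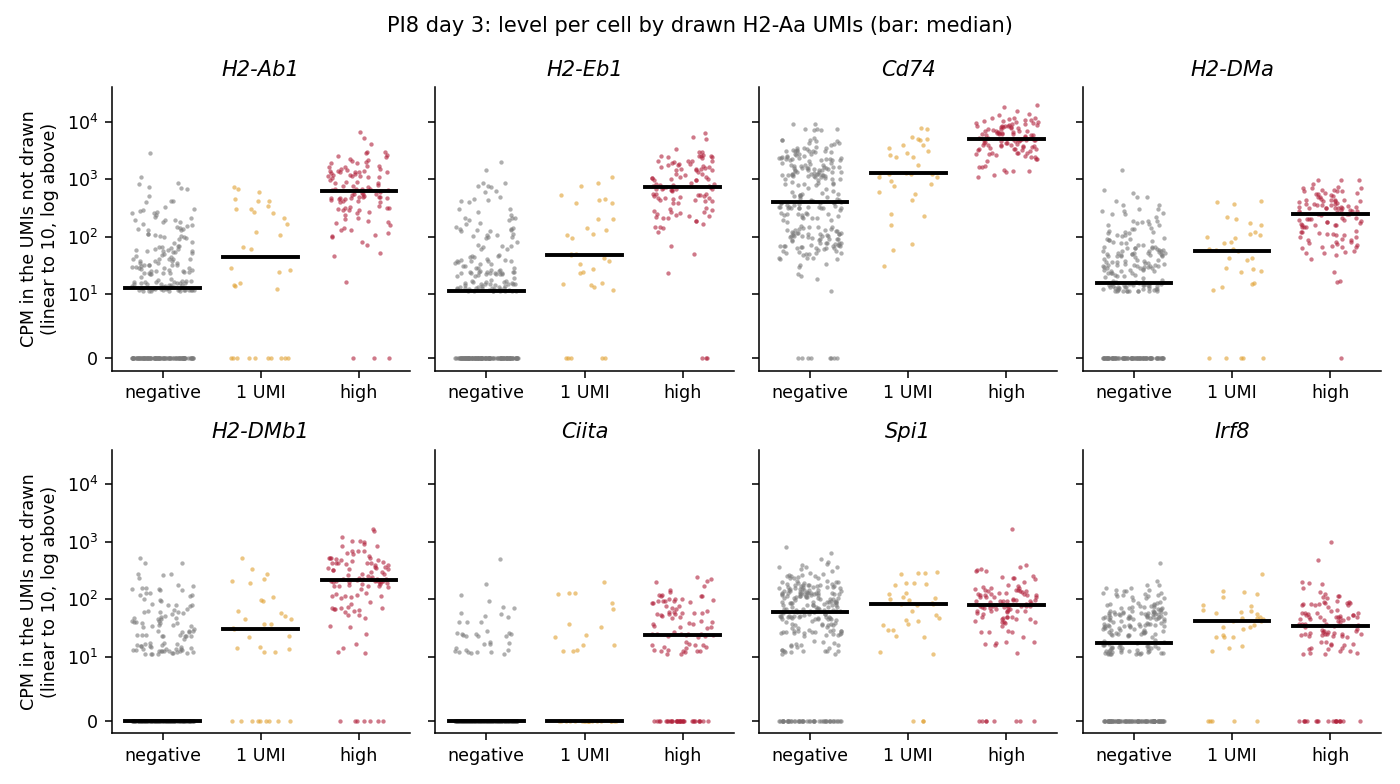
Level of 8 genes in each cell of PI8 day 3, in CPM of the UMIs not drawn (vertical axis, linear to 10 and logarithmic above), for 257 negative cells, 34 cells with a single drawn H2-Aa UMI and 110 high cells; each point is a cell and bars are medians. The class II genes step up from left to right, with Cd74 medians of 409 CPM in negative and 5062 CPM in high cells, and the median of Ciita is above 0 in the high cells alone, while the bars of Spi1 and Irf8 lie close together.

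The class II transcripts were found together in the same cells. Among the drawn UMIs, where all cells have equal depth, 73 of 110 high cells (66.4%) held at least 1 UMI of each of H2-Ab1, H2-Eb1, H2-DMa, H2-DMb1 and Cd74, against 11 of 257 negative cells (4.28%). None of these 5 was drawn in 0 high cells and in 21 negative cells. Cd74 alone was common outside the high class, drawn in 86.8% of negative cells and in 12.8% and 14.2% of cells of the MEF libraries. H2-Ab1 was drawn in 24.9% of negative cells, against 0.605% and 0.815% in the MEF libraries. Over the 401 cells the Spearman correlation with drawn H2-Aa UMIs was 0.72 for H2-Eb1, 0.71 for H2-Ab1, 0.67 for Cd74, 0.65 for H2-DMb1 and 0.51 for H2-DMa. It was 0.36 for Ciita, 0.04 for Spi1 and for Irf8, and 0.02 for B2m, the light chain of MHC class I. Ciita, Spi1 and Irf8 had few UMIs per cell in the draw, which pulls a correlation toward 0. These correlations describe cells of 1 library that share its preparation, and the drawn H2-Aa UMIs are the values that set the classes. Correlations with H2-Aa in the UMIs not drawn, within the 257 negative cells, were weaker for the class II genes. They were 0.31 for H2-Eb1 and H2-Ab1, 0.27 for Cd74, 0.17 for H2-DMa and 0.13 for H2-DMb1. For Ciita, Irf8, B2m and Spi1 they were 0.24, 0.10, 0.08 and 0.07. At full depth 154 of those cells had 0 H2-Aa UMIs, which limits these values.

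The difference was graded rather than all at the threshold. With 20 or more H2-Aa UMIs drawn (14 cells), H2-Ab1 reached 2580 CPM, H2-Eb1 3099 CPM and Cd74 11898 CPM. With 4 to 9 drawn (47 cells), the same genes were at 555, 704 and 4764 CPM. Cells grouped at 0, 1, 2 to 3, 4 to 9, 10 to 19 and 20 or more drawn UMIs held more of all 3 in each group than in the one before. Single steps were not so even: the 11 cells with exactly 2 UMIs held 547 CPM of H2-Ab1, 675 CPM of H2-Eb1 and 5003 CPM of Cd74, above the 417, 498 and 3891 CPM of the 22 cells with 2 or 3. The 34 cells with 1 UMI held 164, 175 and 2278 CPM, between the negative cells and those at 2.

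**Figure D2:**
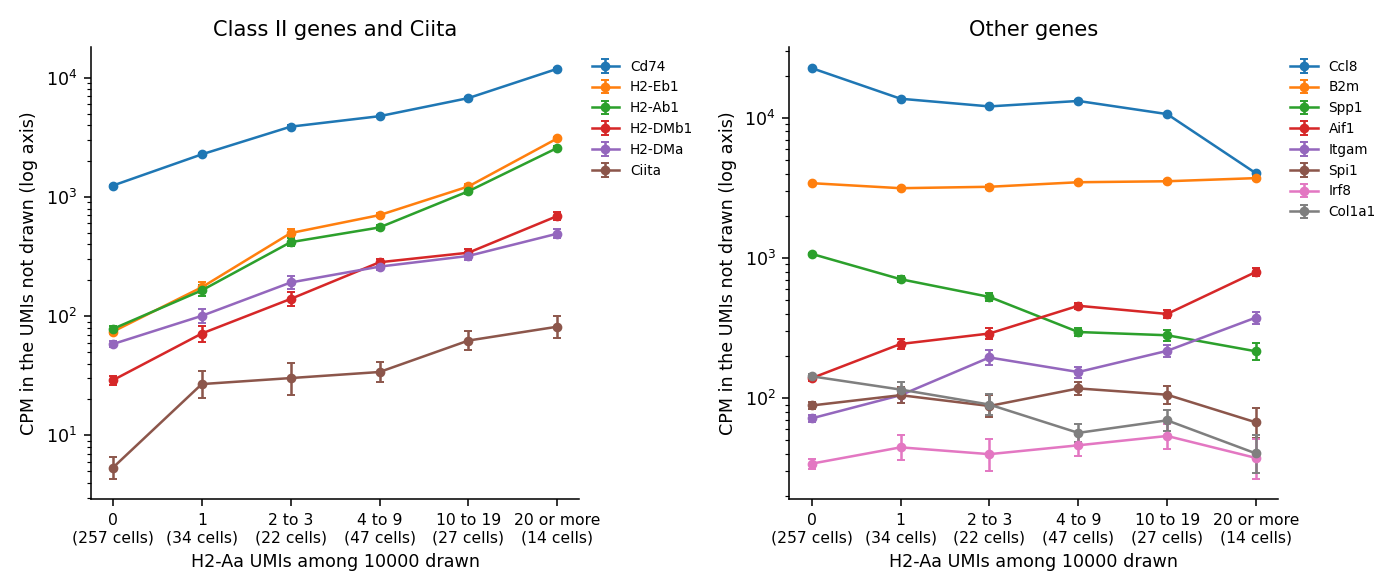
CPM of the UMIs not drawn (log axis) in cells grouped by the number of H2-Aa UMIs among 10000 drawn; points are class sums and bars exact 95% Poisson intervals, with the number of cells under each group. Class II genes and Ciita are higher in each plotted group than in the one before, B2m stays between 3147 and 3714 CPM, and Ccl8 is lowest, at 4019 CPM, in the cells with the most H2-Aa.

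The rest of the class II list was uneven. Its 13 genes comprised H2-Aa, 8 other measured genes (at least 10 CPM over all kept cells), H2-DMb2 below that level and 3 genes with no UMI. Of the 8, 6 were at least 2-fold higher and 0 lower, with a median log2 ratio of 2.31, where 0.804% of all 7214 measured genes were 2-fold higher and their median was -0.06. Ctss, which trims the invariant chain, was at 235 CPM against 98.1 CPM, 2.40-fold higher. The other lysosomal members were near equal: Ifi30, a thiol reductase that unfolds antigen, was at 86.2 against 83.2 CPM and Lgmn, an endopeptidase, at 342 against 322 CPM. H2-DMb2, a near copy of H2-DMb1 whose reads the counting could split, had 27 UMIs (3.65 CPM) in high and 20 UMIs (1.15 CPM) in negative cells. H2-Oa and H2-Ob, the chains of the inhibitor of H2-DM, and H2-Eb2 had 0 UMIs in both classes, which allows up to 0.405 CPM in high and 0.173 CPM in negative cells. In splenic type 2 dendritic cells (cDC2) H2-Oa stood at 476 CPM and H2-Ob at 214 CPM.

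Among the factors that act at class II promoters, the difference lay in the coactivator. Ciita was at 47.0 CPM (42.2 to 52.2) in high and 5.35 CPM (4.32 to 6.56) in negative cells, 8.78-fold higher, and was drawn in 34.5% against 6.61% of cells. The MEF libraries had 0 and 2 UMIs of Ciita (0 and 0.0417 CPM), and cDC1 had 386 CPM. The DNA-bound partners were expressed at similar levels in both classes. The measured ones, Rfxap, Nfya, Nfyb, Nfyc and Creb1, differed by log2 ratios of -0.23 to 0.20, and all 5 intervals contained 0. Rfx5 and Rfxank, below the level that counts as measured, had log2 ratios of 0.51 (-0.04 to 1.03) and 0.31 (-0.39 to 0.98). So 1 of the 6 measured members of this list was 2-fold higher and 0 lower, and that was Ciita. Of all 7214 measured genes, 0.804% were 2-fold higher and 1.23% lower, so most genes would be near equal by this measure.

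The delivered factors themselves separated the classes little. Spi1 was at 102 CPM against 88.6 CPM, a log2 ratio of 0.20 (0.07 to 0.32), with cell medians of 78.7 and 59.5 CPM. Irf8 was at 45.5 against 34.1 CPM, a log2 ratio of 0.42 (0.22 to 0.61), with cell medians of 33.8 and 17.3 CPM. Both were found across the 2 classes at full depth, Spi1 in 95.5% of high and 82.9% of negative cells and Irf8 in 88.2% and 69.3%. Whether these counts include transcripts of the lentivirus is not given in the sources used here. Of the related factors that were not delivered, Batf3, Prdm1 and Irf4 differed more but were scarce. Ikzf2 was near equal, with a log2 ratio of -0.007, and Spib was below the level that counts as measured. Batf3, a partner of IRF8 in type 1 dendritic cells (cDC1), had 98 UMIs (13.2 CPM) against 54 UMIs (3.11 CPM), a log2 ratio of 2.09 (1.60 to 2.60). Prdm1, which encodes BLIMP-1, a repressor of Ciita in plasma cells, was at 7.97 against 17.0 CPM, and Irf4 had 7 UMIs against 62 (0.945 and 3.57 CPM).

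Leukocyte genes leaned to the high class. Of 9 measured pan-leukocyte genes, 4 were at least 2-fold higher and 0 lower, with a median log2 ratio of 0.95. Of all measured genes, 0.804% were 2-fold higher. Aif1, an actin-binding protein of myeloid cells, stood at 457 against 139 CPM, 3.29-fold higher. Ptprc, which encodes CD45, was at 49.6 against 16.0 CPM, a log2 ratio of 1.63 (1.40 to 1.86), and had 0 UMIs in both MEF libraries. Laptm5 and Pld4, lysosomal proteins of blood cells, had log2 ratios of 1.13 and 1.26. The summed level of all 18 genes of the list was 1904 CPM in the high and 1085 CPM in the negative class, and single cells ran from 272 to 7019 CPM and from 0 to 3593 CPM. The classes thus overlapped broadly for these genes.

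Markers of dendritic cell subsets gave a mixed picture, where 0.804% of all measured genes were 2-fold higher. Of 5 measured cDC1 genes, 1 was 2-fold higher: Naaa, a lysosomal amidase, at 187 against 73.4 CPM. Cd24a, on the same list, had a log2 ratio of -0.87. Of 6 measured cDC2 genes, 1 was 2-fold higher: Itgam, the CD11b integrin chain, at 209 against 71.7 CPM, 2.91-fold higher. Cd209a had a log2 ratio of -0.89. None of the 3 measured pDC genes was 2-fold apart. Clec9a, the locus that drives the Cre of the sort, Flt3 and Ccr7 had 0 UMIs in both classes. Of 6 measured costimulation and maturation genes, 1 was 2-fold higher: Cd200, a surface glycoprotein, at 14.2 against 7.02 CPM, with 65.7% of its high-class UMIs in 5 cells. Cd40, a receptor of the same list, had a log2 ratio of 0.36. Cd86, a ligand of CD28 below the level that counts as measured, had one of 2.39 (1.82 to 2.98) from 11.5 against 2.19 CPM.

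Some other immune genes were higher by the class sums, where 0.804% of all measured genes were 2-fold higher. Il1b, which encodes interleukin-1 beta, stood at 1052 against 404 CPM, yet cell medians were 70.7 and 28.1 CPM. The inhibitory Fc receptor Fcgr2b was at 103 against 39.4 CPM and was drawn in 35 of 110 high and 46 of 257 negative cells. The activating receptor Fcgr3 was at 53.1 against 25.7 CPM, with 66.7% of its high-class UMIs in 5 cells. Ccr2, a chemokine receptor of monocytes, was the 1 of 10 measured macrophage and monocyte genes that was 2-fold higher, at 132 against 59.6 CPM, drawn in 37 high and 41 negative cells, and none was 2-fold lower. Cxcl9 was at 84.9 against 28.9 CPM, with 52.1% of the high class's UMIs in 5 cells. Ifitm1 was at 216 against 52.0 CPM, but 5 cells held 73.1% of its UMIs in the high class, and it was drawn in 22 of 110 high and 49 of 257 negative cells. Ube2c, a cell cycle gene with a log2 ratio of 1.46, had 78.8% of its high-class UMIs in 5 cells, and its direction changed with the draw.

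**Figure D3:**
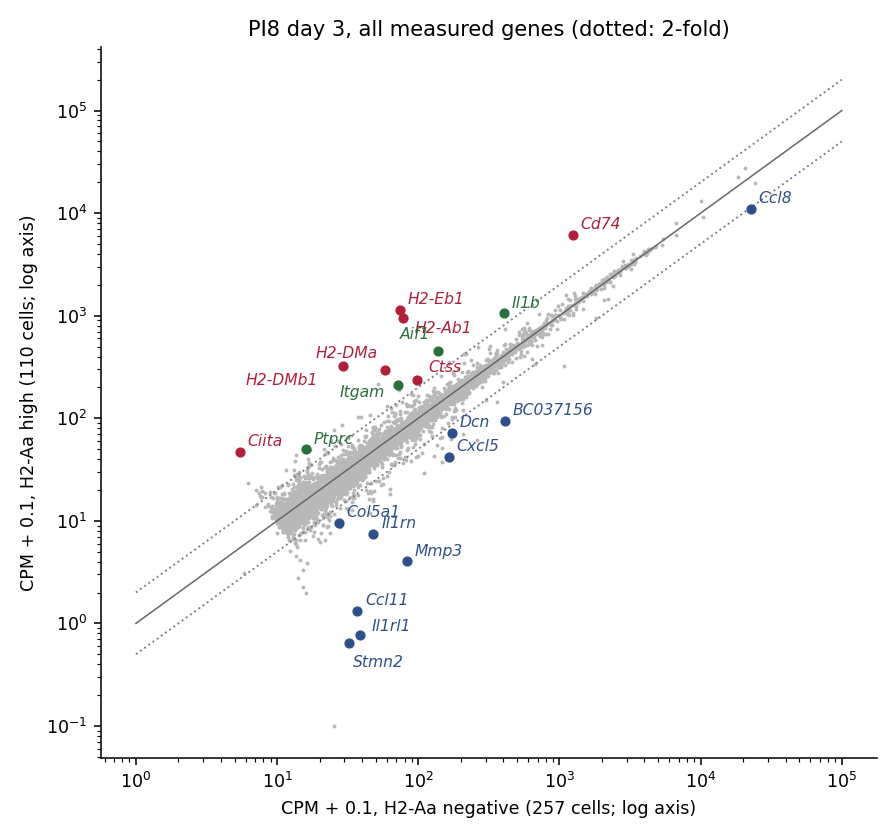
CPM + 0.1 of the UMIs not drawn in H2-Aa negative (horizontal) and high (vertical) cells of PI8 day 3 for all 7214 measured genes other than H2-Aa, both axes logarithmic; the solid line is equality and dotted lines are 2-fold. Class II genes and Ciita (red) stand farthest above the line, for example H2-Eb1 at 1131 against 74.1 CPM. Of the genes in blue, Stmn2, Il1rl1, Ccl11 and Mmp3 are farthest below, and the point at the bottom is Aqp5, with 0 UMIs in the high class.

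More genes were 2-fold lower (89) than higher (58) in high cells, 2.04% of the 7214 measured genes in either direction. The lowest ratios belonged to genes expressed by a handful of negative cells. Stmn2, a tubulin-binding protein of neurons, was at 0.540 against 32.3 CPM; Il1rl1, the receptor of interleukin-33, at 0.675 against 38.3 CPM; Ccl11, which encodes eotaxin, at 1.22 against 36.8 CPM; and Mmp3, a stromal protease, at 3.92 against 82.7 CPM. In the negative class, 5 cells held 62.2% of the Stmn2, 74.6% of the Il1rl1, 72.5% of the Ccl11 and 73.1% of the Mmp3 UMIs. Those were 19 different cells, 1 of them among the top 5 of more than 1 gene, so the 4 genes marked mostly different cells. Negative cells above 100 CPM numbered 15, 11, 12 and 16 for the 4 genes in that order, and high cells 0 for each.

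Genes of the fibroblast program were lower in part. Of 16 measured fibroblast and matrix genes, 4 were at least 2-fold lower and 0 higher, with a median log2 ratio of -0.21, where 1.23% of all measured genes were 2-fold lower. At 1.5-fold, 2.48% of all measured genes were higher and 3.58% lower. The 4 were Col5a1 at 9.45 against 27.2 CPM, Thy1, a surface glycoprotein of stromal cells, at 18.6 against 45.9 CPM, Dcn, the proteoglycan decorin, at 72.1 against 173 CPM, and Col1a1, the main collagen of connective tissue, at 64.0 against 143 CPM. Sparc, another matrix protein, was nearly equal at 937 and 1069 CPM. Both classes lay far below the 5437 and 5409 CPM of Col1a1 in the MEF libraries. Meg3, an imprinted noncoding RNA of mesenchymal cells, was at 29.2 against 109 CPM. The 7 measured contractile and the 7 measured mesenchymal transcription factor genes had none 2-fold apart, with medians of 0.14 and -0.14.

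The cytokine and stress lists each held 1 gene that was 2-fold lower, where 1.23% of all measured genes were 2-fold lower and 0.804% higher. Of 11 measured cytokine and chemokine genes, 2 were 2-fold higher, Il1b and Cxcl2, and 1 lower, Ccl8, with a median log2 ratio of 0.49. Of 8 measured stress response genes 1 was 2-fold lower, Mt2, with a median of -0.14. Ccl8, a monocyte chemoattractant and 1 of the most abundant transcripts, was at 11043 CPM in high and 22643 CPM in negative cells, with cell medians of 5361 and 9867 CPM, and it was drawn in all 110 high and all 257 negative cells. It can share reads with close family members. Spp1, which encodes osteopontin, was at 1070 CPM in the cells with 0 drawn H2-Aa UMIs, 527 CPM at 2 to 3 and 216 CPM at 20 or more, with 183 CPM in the cells at exactly 2. Mt2, a metallothionein, was at 144 against 361 CPM. Lcn2 was at 61.6 against 261 CPM and Cxcl5 at 41.9 against 164 CPM, but 5 cells held 76.2% and 77.5% of their UMIs in the negative class. Il1rn, the interleukin-1 receptor antagonist, was at 7.29 against 48.0 CPM.

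Several other programs had few or no members 2-fold apart in PI8 day 3, where 2.04% of all 7214 measured genes were. Lists of this size would hold few such genes at that share. None of the 14 measured MHC class I and immunoproteasome genes was 2-fold apart. Of these, 13 had a positive log2 ratio, against 2785 of the 7214 measured genes, and their median was 0.10 against -0.06. B2m was at 3471 against 3418 CPM, and the largest ratio was that of Psmb9, at 0.38. Interferon-stimulated genes were level or slightly lower: 0 of 16 type I response genes were 2-fold apart, with a median of -0.09, and Isg15 was at 1929 against 2389 CPM. Of 15 measured interferon gamma response genes only Cxcl9 was 2-fold apart, with a list median of -0.20. Irf1, a transcription factor induced by interferon gamma, was at 48.8 against 55.8 CPM. The 9 p53 target and cell cycle inhibitor genes and the 5 RNA quality genes had none 2-fold apart.

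Marker lists of other cells were low or at 0. The erythroid list had 0 UMIs, and its 6 genes were at 0. Of the T and NK cell list, Cd3e, Cd3d and Cd3g were at 0 and the sum was 1.62 CPM in high and 1.84 CPM in negative cells. Of the B cell list 1 gene was measured, Ebf1, which stromal cells also express, at 11.2 against 20.7 CPM, and Cd79b was at 0. The neutrophil list summed to 39.2 against 90.3 CPM, nearly all of it S100a8 at 38.2 against 89.3 CPM. The epithelial list summed to 96.6 against 87.6 CPM, with 2 measured genes and neither 2-fold apart, the endothelial list to 6.08 against 9.84 CPM and the mast cell and basophil list to 3.24 against 12.5 CPM. Per single cell, the B cell sum ran from 0 to 182 CPM in high and 0 to 941 CPM in negative cells.

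**Figure D4:**
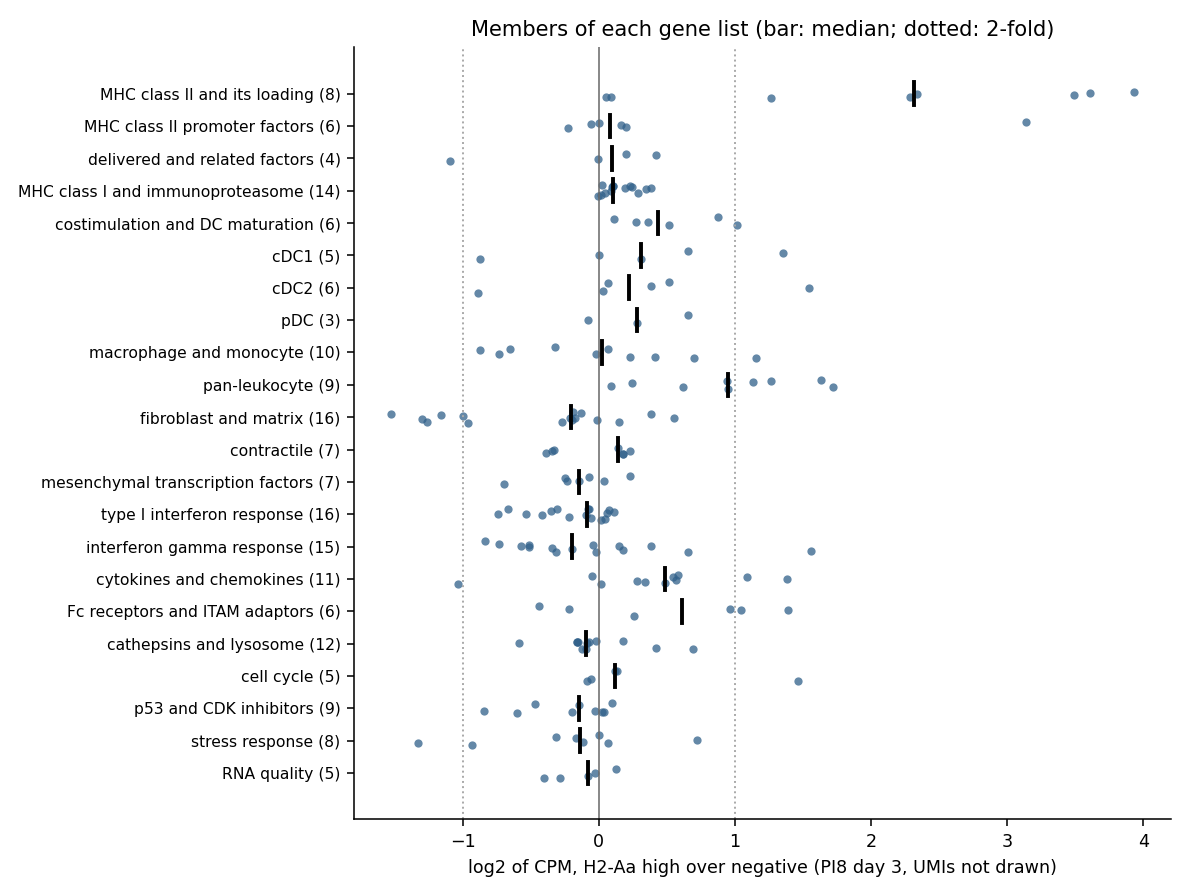
log2 ratio of CPM, H2-Aa high over negative in PI8 day 3, for the measured members of each gene list with at least 3 such members (number in brackets); each point is a gene, bars are medians and dotted lines 2-fold. The class II list has a median of 2.31, the pan-leukocyte list 0.95 and the fibroblast list -0.21, and Ciita is the lone far point among the promoter factors.

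The same rule split other transduced libraries, which allowed a test on cells other than those of PI8 day 3. The rule and the lists were chosen with earlier results of this series known. Libraries other than PI8 day 3 with at least 50 cells in each class were PIB day 3 (87 high, 573 negative), PIB day 9 (120 and 449) and SI8 in the Clec9a line at day 3 (168 and 1096). Their UMIs not drawn were summed per library and class and tested with the library as a block, without H2-Aa. Unlike in PI8 day 3, high cells were shallower than negative cells there, with median depths of 55524 against 69091, 61295.5 against 67136 and 55957 against 65332 UMIs in the same order, and the part of depth in the differences was not tested. Since the libraries carry different factors and times, the p-values ask whether a difference is common to these 3. Of 13090 genes tested, 405 (3.09%) were called, of which 175 rose (1.34%) and 230 fell (1.76%) in high against negative cells.

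Class II genes and Ciita rose in all 3 libraries. H2-Eb1 was at 322 against 13.0 CPM in PIB day 3, 1513 against 44.6 CPM in PIB day 9 and 627 against 47.5 CPM in SI8 day 3. Its log2 fold change was 4.53 ± 0.26 (SE; adjusted p = 0.000814, edgeR's quasi-likelihood test with Benjamini-Hochberg adjustment, as for all adjusted p-values here), beside 3.93 in PI8 day 3. H2-Ab1 rose by 4.33 ± 0.21 (adjusted p = 0.000348), H2-DMb1 by 3.38 ± 0.13 (adjusted p = 0.000329) and H2-DMa by 2.74 ± 0.13 (adjusted p = 0.000348). Ciita stood at 36.0 against 4.53 CPM, 30.6 against 1.80 CPM and 27.9 against 3.18 CPM in the same order, a rise of 3.39 ± 0.21 (adjusted p = 0.000814). The levels of Ciita in high cells were thus close across the 4 libraries, 27.9 to 47.0 CPM. Of 9 class II genes tested, 7 rose and 0 fell, Ctss and Lgmn among the 7, where 1.34% of all genes tested rose. Cd74 rose by 3.19 ± 0.45 (adjusted p = 0.0165), a call that was lost without PIB day 3 (adjusted p = 0.109), as was that of Lgmn (0.0827). Without that library 48 genes were called in all.

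Neither Spi1 nor Irf8 passed the test over the 3 libraries. Spi1 was at 33.9 against 30.05 CPM in PIB day 3, at 45.4 against 50.3 CPM in PIB day 9 and at 2.10 against 1.21 CPM in SI8, which carries Spib in its place. Over the 3 libraries its log2 difference was 0.16 ± 0.14 (adjusted p = 0.755). Irf8 was higher in 3 of 3 libraries, with a log2 difference of 0.50 ± 0.12 (adjusted p = 0.0897). Over the 7 libraries with at least 20 cells in each class it rose by 0.51 ± 0.13 (adjusted p = 0.0417). Those 7 add PI4 day 3, PIP day 3, PIP day 9 and SI8 day 9 (Clec9a line) to the 3. PI4 and PIP carry Irf4 in place of Irf8, so Irf8 was not a delivered factor there. Batf3 rose by 1.32 ± 0.24 (adjusted p = 0.037), and its adjusted p was 0.106 without PIB day 3 and 0.147 without SI8 day 3. Batf3 was itself delivered in both PIB libraries, and whether its counts there include transcripts of the lentivirus is not given in the sources used here. Of the pan-leukocyte list, 5 of 14 tested genes rose and 0 fell, where 1.34% of all genes tested rose. Aif1 rose by 2.22 ± 0.27 (adjusted p = 0.0108, or 0.103 without PIB day 3) and Ptprc by 1.41 ± 0.14 (adjusted p = 0.00505, or 0.0906 without PIB day 3). Cd86 rose by 2.39 ± 0.22 (adjusted p = 0.00452), and of the cDC1 list Xcr1, Cadm1 and Naaa rose. Those 3 calls were lost when a library was left out, with adjusted p-values of 0.0890 for Cadm1 and 0.144 for Naaa without PIB day 3, and of 0.0791 and 0.0611 for Xcr1 without PIB day 9 and without SI8 day 3. Of the 14 MHC class I and immunoproteasome genes, near level in PI8 day 3, H2-D1 and H2-K1 rose by 0.34 ± 0.06 (adjusted p = 0.0335) and 0.36 ± 0.07 (adjusted p = 0.0481), and neither call was kept without PIB day 3 (0.237 and 0.306). Irf1 rose by 0.44 ± 0.08 (adjusted p = 0.0375), a call also lost without PIB day 3 (0.192). Its log2 ratio in PI8 day 3 was -0.20.

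Outside the lists, the genes with the lowest p that rose included P2ry14, a receptor for nucleotide sugars (1.53 ± 0.11, adjusted p = 0.00122), Fabp7, a fatty acid binding protein (2.10 ± 0.18, adjusted p = 0.00399), Fgd2 and Ucp2. In PI8 day 3 their log2 ratios were 1.52, 1.04, 0.76 and 0.84. Without PIB day 3 the adjusted p of Fabp7, Fgd2 and Ucp2 was 0.0509, 0.0535 and 0.0573. Of the genes that fell with the lowest p, Il1rl1 fell by 3.22 ± 0.15 (adjusted p = 0.000348), F3, the tissue factor gene, by 2.18 ± 0.12 (adjusted p = 0.000636), and Ccl11 by 4.97 ± 0.35 (adjusted p = 0.00122). Over the 7 libraries with at least 20 cells a class, F3 had a log2 difference of -1.05 (adjusted p = 0.0924) and Ccl11 fell by 2.14 (adjusted p = 0.0314). Stmn2 and Mmp3, among the lowest genes of PI8 day 3, had log2 differences of -0.16 (adjusted p = 0.869) and -1.004 (adjusted p = 0.389) over the 3 libraries, each lower in 2 of them. Grem1, Fbln5, Col12a1, Tmem45a, Twist2, Cxcl5 and Meg3 also fell, with log2 changes of -1.20 to -1.52. Of 20 fibroblast and matrix genes tested, 7 fell and 1, Mmp2, rose (adjusted p = 0.0165; 0.0687 without PIB day 3), and 4 of 10 contractile genes fell, where 1.76% of all genes tested fell. Without PIB day 3 none of these calls was kept, with adjusted p-values of 0.112 to 0.237 for the 7 fibroblast and matrix genes and of 0.0866 to 0.201 for the 4 contractile genes.

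**Figure D5:**
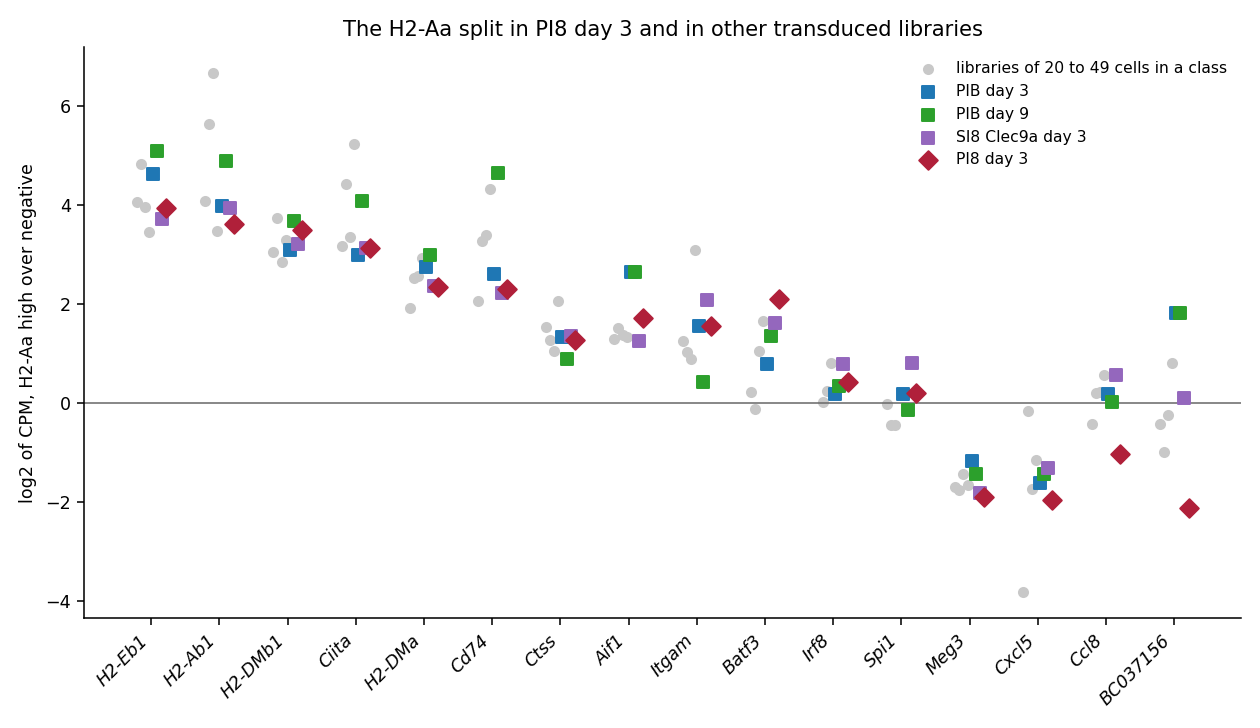
log2 ratio of CPM, H2-Aa high over negative, for 16 genes (horizontal axis) in PI8 day 3 (red diamonds), in the 3 libraries of the test (squares) and in 4 libraries with 20 to 49 cells in their smaller class (grey). The grey libraries are PI4 day 3, PIP day 3, PIP day 9 and SI8 day 9 in the Clec9a line. Ratios with 0 UMIs in a class are not drawn. H2-Eb1, H2-Ab1, H2-DMb1, Ciita, H2-DMa and Cd74 lie at 1.92 or above in all 8 libraries, Spi1 lies between -0.45 and 0.80, and Ccl8 and BC037156 are lower in PI8 day 3 than in any of the squares.

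Genes that were 2-fold apart in PI8 day 3 mostly kept their sign in the other libraries. Of the 57 higher genes that could be tested, 53 had the same sign in the fit, 38 in each of the 3 libraries, and 25 rose while 0 fell. Of the 89 lower genes, 78 had the same sign, 67 in each library, and 36 fell while 1, BC037156, rose (adjusted p = 0.0408; 0.235 without PIB day 3 and 0.183 without PIB day 9). Over all 7213 measured genes tested, 4415 had the same sign, and how many had it in each of the 3 libraries was not computed. Of all genes tested in the fit, 1.34% rose and 1.76% fell. Nptx1, higher in PI8 day 3 and opposite in the other libraries, was not among the genes tested.

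The share of high cells differed between libraries. It was 27.4% in PI8 day 3, 12.3% (10.0% to 15.0%) in PIB day 3, 19.97% (16.8% to 23.4%) in PIB day 9 and 12.1% (10.4% to 14.0%) in SI8 day 3. PI8 day 9 held 15 high cells among 208 kept (7.21%), at a median depth of 8276 UMIs per cell before cells under 10000 were dropped, so few of its 683 cells entered. The SII libraries, SI8 with Ikzf2, had 0.290% at day 3 and 0.591% at day 9 in the Clec9a line. Those labelled CD2 had 0.0761% and 0%. PI4 had 10.5% at day 3 and 4.82% at day 9, and PIP had 3.44% and 3.95%. SI8 day 9 in the Clec9a line had 9.62%. The largest share of a transduced library was 48.4% (30.2% to 66.9%), in SI8 day 9 labelled CD2, from 15 of only 31 kept cells. SI8 day 3 labelled CD2 had 9.09% of 11 kept cells. These shares rest on 1 library each and describe those libraries.

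H2-Ab1 and Cd74 stood lower in high cells than in any of the splenic dendritic cell types. In high cells of PI8 day 3, H2-Ab1 at 953 CPM and Cd74 at 6093 CPM stood beside 7497 and 19155 CPM in cDC1, 8734 and 22751 CPM in cDC2 and 2660 and 12204 CPM in plasmacytoid dendritic cells (pDC). H2-DMb1 at 327 CPM was closer, below 623 CPM in cDC1 and 398 CPM in cDC2 and above 306 CPM in pDC. In the MEF libraries H2-Ab1 was at 0.656 and 0.729 CPM and Cd74 at 16.9 and 17.8 CPM, beside 78.1 and 1247 CPM in the negative cells. The MEF libraries held no high cells and so give no measure of free RNA in the droplets of PI8 day 3, whose part in the class II UMIs of negative cells was not tested. Spi1, at 102 CPM in the high cells, was at 359 CPM in cDC1, 587 CPM in cDC2 and 74.6 CPM in pDC. Irf8, at 45.5 CPM in the high cells, was at 1607, 25.9 and 3555 CPM in the same order.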

How the data were processed

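The authors deposited raw UMI counts for 24455 gene symbols in each of 25991 cells, made with Cell Ranger 6.0.1 and Seurat on mm10, per the submitters' processing notes; their filters on cells are not given in the sources used here. All columns belonged to labelled libraries, leaving 0 unassigned. The PI8 day 3 library held 31118230 UMIs (median 82866 per cell). Cells were thinned without replacement to 10000 UMIs (seed 1; shallower cells dropped), and levels are CPM of the UMIs not drawn, over genes of at least 10 CPM, with 2-fold as the description of a difference and 3 counts as the floor for 0. Poisson, Clopper-Pearson and conditional binomial intervals are exact at 95% and cover counting error only. Doublets (Scrublet in scanpy 1.11.5) were kept and left out as an alternative. Counts summed per library and class were tested with edgeR 4.0.16 in R 4.3.3 (quasi-likelihood F test, TMM, filterByExpr, library as a block, 2 residual degrees of freedom, two-sided, Benjamini-Hochberg adjusted p under 0.05). Both classes of a pair come from the same library, and over 13090 genes their deviations from the class means correlated at 0.64 to 0.79. The p-values reflect only how much these libraries vary, which may be technical. The split was also run on simulated cells with Poisson counts and H2-Aa at 1 level or absent, and the test on simulated sums. Those cells had no graded H2-Aa and no genes concentrated in a few cells, so that run does not cover these features of the library.

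Named genes were every member of the class II, promoter factor and delivered factor lists, the 3 members of each other list with the largest ratio, the 12 highest and 12 lowest genes of at least 20 CPM, and the 10 rising and 10 falling genes of lowest p in the fit; a few further list members are given as values chosen after they were seen. The split, the lists and the rule were chosen with earlier results of these data known. Symbols of near copies (the H2 genes, the Ccl genes) are uncertain, since counting could split or drop their reads.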

Additional observations from a re-analysis of the deposited data

Results flagged for a closer look

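Among the named genes, 3 that were 2-fold apart in PI8 day 3 had the opposite sign in all 3 libraries of the test. This difference between libraries was not tested, and genes that were not named were not searched for it. BC037156 had a log2 ratio of -2.12 in PI8 day 3 (94.8 CPM in high and 412 CPM in negative cells), with 68.9% of its high-class and 33.2% of its negative-class UMIs in 5 cells, against 1.81 in PIB day 3, 1.82 in PIB day 9 and 0.10 in SI8 day 3. Ccl8 had -1.04 in PI8 day 3 against 0.18, 0.01 and 0.57 in the same order. Nptx1 had 1.58 in PI8 day 3, from 48.1 against 16.1 CPM with 74.4% and 92.5% of its UMIs in 5 cells of a class, whereas the 3 other libraries had 0 UMIs in high cells and 43, 3 and 4 UMIs in negative cells.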

How the results depend on the processing

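The 47 named genes that were 2-fold apart in PI8 day 3 gave 656 values under the alternatives, of which 652 kept the sign and 617 stayed past 2-fold. The exceptions in sign were Ube2c, at -0.20 and -0.13 with the draws of seeds 2 and 3 and -0.012 when thinned to 5000 UMIs, and Ccl11, at 0.17 when the high class took cells with at least 1 UMI; the cause was not tested. The class II median of 2.31 moved to 2.22, 2.27 and 2.47 with the draws of seeds 2, 3 and 5, and to 2.41 and 2.22 at 5000 and 20000 UMIs. It moved to 2.08 and 2.43 with classes of at least 1 and at least 4 UMIs. With drawn UMIs only it was 2.24, and as a mean over cells 2.38. TMM scaling, which moves all log2 ratios up alike, gave 2.37. The count of 147 genes 2-fold apart (58 higher, 89 lower) became 276 (193 lower) with drawn UMIs only, where fewer UMIs per gene are counted, and 55 genes were lower with at least 1 UMI. It was 437 (179 and 258) at 1.5-fold, 95 (38 and 57) at a minimum of 20 CPM and 482 (138 and 344) at 2 CPM. Leaving out Scrublet's calls or cells under 50000 UMIs, the latter added after seeing the data, gave 156 and 150.

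Across the other libraries, the fit with no replicate block, which sets aside that both classes come from the same library, called 0 genes (0 higher, 0 lower; 350 at an unadjusted p under 0.05 in edgeR), against 405 with the pairing (2046 at an unadjusted p under 0.05) and 474 by DESeq2 with the pairing. Leaving out each library in turn gave 48 to 424 genes (17 to 196 higher, 31 to 228 lower), the lowest without PIB day 3. A minimum of 100 cells a class leaves the same 2 libraries and 48 genes (17 and 31). No filter on low counts gave 893 (348 and 545), drawn UMIs only 261 (136 lower), and PI8 day 3 included 623 (297 higher). A minimum of 20 cells a class, added after seeing the data, took 7 libraries and called 652 (275 and 377); there Cxcl2 had a log2 difference of -0.011, and the calls of F3 (adjusted p = 0.0924), Irf1 (0.101), Postn (0.562), Myl9 (0.630), Acta2 (0.662) and BC037156 (0.795), among others, were lost. With 2 residual degrees of freedom the fit is sensitive to single libraries, and genes with few UMIs in 110 cells have wide intervals.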
